A study of Mus musculus with 4 samples.

Results

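Pim1, Pim2 and Pim3 encode a small family of serine/threonine kinases. They were followed in mouse embryonic stem cells at day 0 and in epiblast-like tissue at day 3 of SFEBq, a serum-free culture in which stem cells quickly re-aggregate and float as bodies resembling embryoid bodies. All 6 probe sets that the platform annotation assigns to these 3 genes were taken, of 45101 probe sets in all, with 2 for Pim1, 1 for Pim2 and 3 for Pim3. The 3 genes were taken by name, and the probe set that stands for a gene was chosen by its mean level, the highest over the 4 arrays, as for all 18193 genes. The difference between the days does not enter that mean. The family was picked with earlier results of these data in view, among them the difference of Pim2. There were 2 samples of epiblast-like tissue at day 3, set against 2 samples of embryonic stem cells at day 0. The biotin-labelled product of total RNA was read on Affymetrix arrays. The labels give no cell line, genotype or medium, and day 3 tissue differs from day 0 cells in culture form as well as in time, so the effects of these cannot be told apart. Nothing states that the duplicates came from separate cultures, so p-values reflect how far these samples spread, and that spread can be technical. The fit used (limma) also borrows the spread of other genes, so its p-values do not rest on a gene's own arrays alone.

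Pim kinases have no regulatory domain that must be switched on by an upstream kinase. They are active as soon as they are made, so their abundance is set largely through transcription, translation and protein turnover. Cytokine receptors that signal through Jak kinases and Stat factors are the classical inducers of Pim genes. In mouse embryonic stem cells, leukemia inhibitory factor (LIF) acts through such a receptor and Stat3, and Pim1 and Pim3 have been described as LIF and Stat3 targets that favour self-renewal. The kinases phosphorylate regulators of survival, of the cell cycle and of protein synthesis, and share many of these substrates with the Akt kinases. Pim1 and Pim2 became known as genes that speed the growth of mouse lymphomas together with Myc.

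The 3 paralogs went in opposite directions between the days. Pim2 was higher at day 3, by 4.70 on the log2 scale, while Pim1 was lower by a log2 difference of -2.25 and Pim3 by one of -1.36. Of the 6 probe sets, 1 was called higher, 4 were called lower and 1 was not called, at an adjusted p under 0.05 in a limma fit over all 45037 probe sets that are not controls. Over all those probe sets 30.9% were called, 14.2% higher and 16.7% lower. In 5 of the 6 Pim probe sets the days did not overlap between arrays, which held for 62.2% of all probe sets.

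Pim2, the paralog on the X chromosome, had log2 values of 12.79 and 12.68 on the day 3 arrays, against 8.03 and 8.04 on the day 0 arrays (probe set 1417216_at). Both day 3 arrays lay far above both day 0 arrays, and the gap between duplicates was 0.113 at day 3 and 0.0074 at day 0. The mean was 12.73 ± 0.08 at day 3 and 8.03 ± 0.01 at day 0 (SD, n = 2 each), a difference of 4.70 ± 0.07 (SE), or 26.0-fold. The adjusted p was 3.65e-11 over all genes (limma, Benjamini-Hochberg). Of 18193 genes, 12 had a larger rise, and 99.9% had a smaller difference in either direction. One probe set measured Pim2, so no second one could be set beside it.

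Pim1, the founding member of the family, had log2 values of 8.36 and 8.29 at day 3, against 10.56 and 10.58 at day 0, on the probe set that represents it (1435458_at). Both day 3 arrays lay below both day 0 arrays. Its means were 8.33 ± 0.05 at day 3 and 10.57 ± 0.01 at day 0 (SD, n = 2 each), a difference of -2.25 ± 0.07 (SE), or 4.75-fold lower (limma, adjusted p = 3.51e-09). The other Pim1 probe set, 1423006_at, had 6.83 and 6.66 at day 3 and 8.60 and 8.37 at day 0. It also fell by 1.74 ± 0.11 on the log2 scale (SE), without overlap. Its adjusted p was 2.05e-06 over all probe sets in limma. A larger fall than that of Pim1 was seen for 149 genes.

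Pim3, which like Pim1 has been placed downstream of LIF in embryonic stem cells, had 10.51 and 10.49 at day 3, against 11.85 on both day 0 arrays, on the probe set that represents it (1437100_x_at). The day 0 values were equal in every deposited digit, as they were for 22 genes in all, so the spread of that pair is 0.0 and understates the error. The difference was -1.36 ± 0.06 (SE), or 2.56-fold lower (limma, adjusted p = 2.01e-08). A second probe set, 1451069_at, had 9.12 and 9.01 at day 3 and 10.66 and 10.54 at day 0, and fell by 1.53 ± 0.08 on the log2 scale (SE, limma, adjusted p = 3.8e-07 over all probe sets). The third, 1438956_x_at, stood at 5.46 and 5.60 at day 3 and 5.50 and 5.61 at day 0, so that the days overlapped. Its difference was -0.02 ± 0.13 (SE, limma, adjusted p = 0.937). Its values lay below the arrays' median of 5.78 to 5.79 and above their first quartile of 4.30 to 4.33. Without detection calls, whether this probe set could register a fall at that level is not known. The suffix _x_at of this probe set and of the one that represents Pim3 marks probes that can match other transcripts. A larger fall than that of Pim3 was seen for 468 genes.

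**Figure D1:**
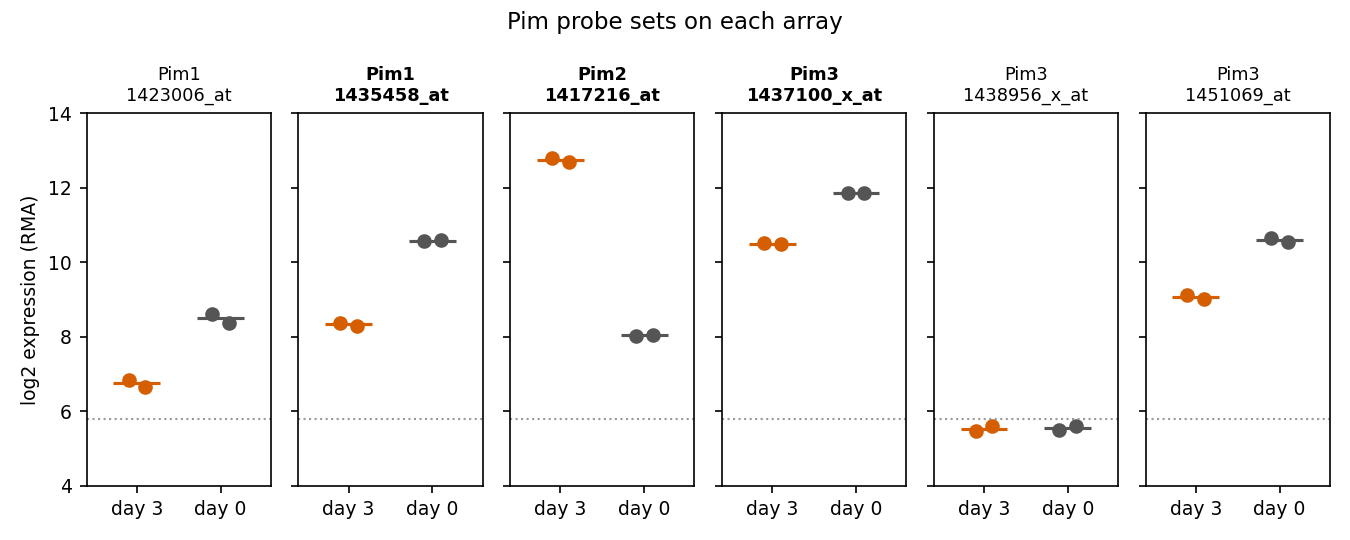
Log2 expression (RMA, vertical axis) of the 6 Pim probe sets on each array, with day 3 on the left and day 0 on the right of each panel. Points are arrays, short lines are means, bold titles mark the probe set that represents the gene, and the dotted line is the arrays' median. Pim2 sits at 12.68 and 12.79 at day 3 and near 8.03 at day 0, both Pim1 probe sets and 2 of the 3 Pim3 probe sets are lower at day 3, and the third Pim3 probe set lies below the median on both days.

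Brightness of different probe sets has no common scale, so the levels of the paralogs were not ranked, and their changes were compared through ratios within each array. The log2 ratio of Pim2 to Pim1 was 4.43 and 4.38 on the day 3 arrays, against -2.53 and -2.55 on the day 0 arrays. It shifted by 6.95 between the days, with SDs of 0.029 at day 3 and 0.0093 at day 0. The log2 ratio of Pim2 to Pim3 was 2.28 and 2.19 at day 3 and -3.82 on both day 0 arrays, a shift of 6.05. The log2 ratio of Pim1 to Pim3 was -2.15 and -2.20 at day 3 and -1.29 and -1.27 at day 0, a shift of -0.89. In each of the 3 pairs the days did not overlap. With 2 arrays against 2, the exact two-sided permutation test cannot give a p below 0.333, and it gave 0.333 for each pair. The fall of Pim1 was thus larger than that of Pim3 on the probe sets that stand for the genes, while the other Pim1 probe set (-1.74) and the other responding Pim3 probe set (-1.53) lay closer together.

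**Figure D2:**
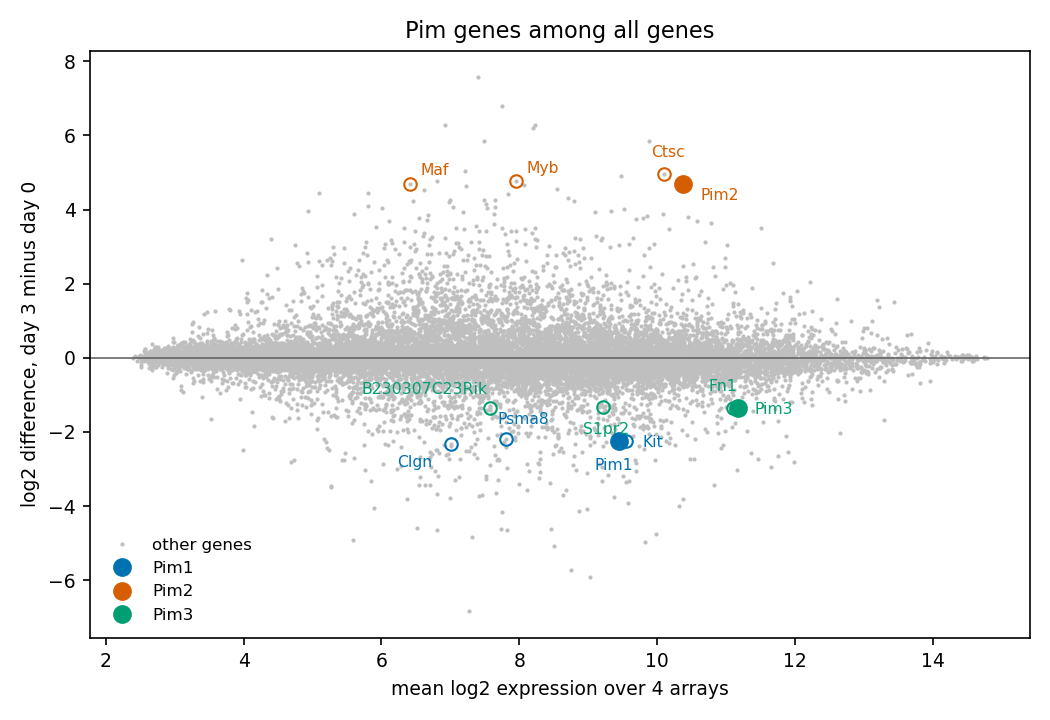
Log2 difference, day 3 minus day 0 (vertical axis), against the mean log2 expression over the 4 arrays (horizontal axis) for 18193 genes. Filled circles are the Pim genes and open circles of the same colour the 3 genes with the most similar profile to each; Pim2 lies among the largest rises at 4.70, Pim1 and Pim3 among the falls at -2.25 and -1.36.

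For a view of the region before each gene, the promoter sequences of RefSeq (build GRCm38.p6) were searched, and all 3 Pim genes were found there with 4 annotated starts. The sources used here name no build for the arrays, so the sequences stand for the genes and not for the probes. Motifs were searched on both strands in the 250 bases before each of 32851 starts. They were the Stat motif TTCNNNGAA, the Klf motif CCNCNCCC, the E-box CACGTG bound by Myc proteins, and the octamer ATGCNAAT bound by POU factors such as Oct4. The 250 bases before the start of Pim2 (chrX:7878056-7878305, + strand), the first start of Pim1 (chr17:29490535-29490784, + strand) and the start of Pim3 (chr15:88861944-88862193, + strand) are shown because the 3 genes changed in different directions. Capitals mark motif matches.
Pim2: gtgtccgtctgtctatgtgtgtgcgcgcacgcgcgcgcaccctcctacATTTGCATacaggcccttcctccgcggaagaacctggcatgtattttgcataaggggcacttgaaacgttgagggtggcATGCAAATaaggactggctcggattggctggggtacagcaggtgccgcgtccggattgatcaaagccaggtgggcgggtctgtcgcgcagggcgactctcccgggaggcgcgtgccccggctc
Pim1: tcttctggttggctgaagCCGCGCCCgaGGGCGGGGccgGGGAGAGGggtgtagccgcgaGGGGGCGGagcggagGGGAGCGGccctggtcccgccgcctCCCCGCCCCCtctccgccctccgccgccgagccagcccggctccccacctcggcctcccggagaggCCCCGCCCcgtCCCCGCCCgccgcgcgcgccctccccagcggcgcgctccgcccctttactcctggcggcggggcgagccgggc
Pim3: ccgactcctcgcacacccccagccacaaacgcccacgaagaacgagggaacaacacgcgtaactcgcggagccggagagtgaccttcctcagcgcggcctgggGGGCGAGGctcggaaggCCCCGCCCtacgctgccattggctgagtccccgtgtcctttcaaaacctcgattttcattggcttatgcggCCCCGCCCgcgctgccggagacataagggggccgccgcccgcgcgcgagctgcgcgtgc

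The 3 upstream regions differed in these letters. That of Pim2 held 2 octamer matches, at -202 to -195 on the - strand and at -123 to -116 on the + strand counted from the start, and no Klf match. An octamer match was present before 2.86% of all starts, and 2 or more before 0.143%. The octamer was chosen after these sequences had been seen, so these shares are no test of its presence before Pim2. The first start of Pim1 had 9 Klf matches, of which 1 pair overlaps, and 1.31% of all starts had as many or more. The fixed letters of this motif are all C, and 99.4% of all starts had a lower share of G and C than this window. The share of 1.31% was not matched for base composition. Pim3 had 3 Klf matches, and 16.7% of all starts had as many or more, while 45.9% had at least 1. No Stat match lay in any of these windows, against 7.02% of all starts. An E-box was found before the second start of Pim1 (chr17:29492835-29493084, + strand), beside 1 Klf match, and before 6.02% of all starts. The bases G and C made up 62% of the Pim2 window, 82.4% of the first Pim1 window and 68% of the Pim3 window, against a median of 52.4%. CpG dinucleotides were at 0.924, 0.856 and 1.08 times the number that base composition gives in Pim2, Pim1 and Pim3, against a median of 0.373. A match is a description of the letters, and binding was not measured.

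**Figure D3:**
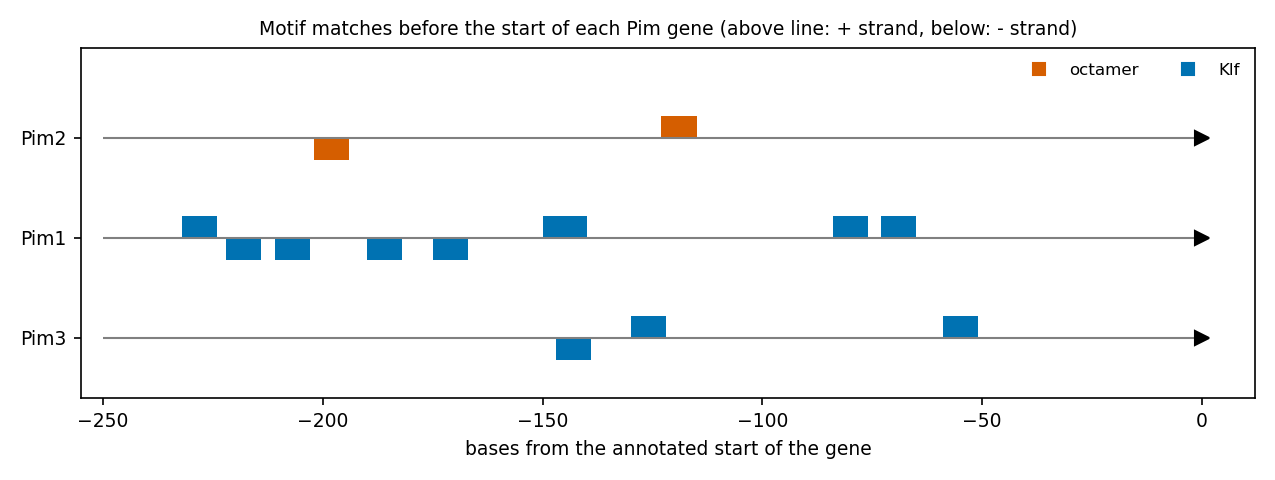
Motif matches in the 250 bases before the annotated start of Pim2, Pim1 (first start) and Pim3; the horizontal axis is the distance from the start in bases and the arrowhead is the start. Boxes above a line are on the + strand and below it on the - strand; Pim2 has 2 octamer matches and no Klf match, Pim1 has 9 Klf matches and Pim3 has 3.

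Signalling genes known to act upstream of Pim were mostly lower at day 3. Of 16 listed cytokine receptors, Jak kinases and Stat factors 15 were measured, and 9 fell, 1 rose and 5 were not called, at a median log2 difference of -0.63. Over all genes 42.3% were called, 20.9% higher and 21.4% lower, with a median difference of 0.01. Lifr, the LIF receptor subunit, had 8.88 and 9.03 at day 3, against 11.13 and 10.91 at day 0, and fell by 2.06 ± 0.09 on the log2 scale (SE, limma, adjusted p = 2.23e-08). Of its 3 probe sets 2 were called, and the difference was -1.26, still called, from the mean of the 3. Il6st, the gp130 subunit that pairs with it, had 8.84 and 8.87 at day 3 and 9.84 and 9.91 at day 0, with a difference of -1.02. Stat3, the factor that carries the LIF signal to the nucleus, had 8.11 and 8.15 at day 3, against 10.16 and 10.00 at day 0, and fell by 1.95 ± 0.08 (SE, limma, adjusted p = 2.12e-08). For each of these 3 genes the days did not overlap, as for 69.0% of all genes.

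The other Stat genes went different ways. Stat5a, which mediates induction of Pim genes by cytokines in blood cells, had 6.18 and 6.07 at day 3 and 7.59 and 7.20 at day 0, and fell (difference -1.27). Its close relative Stat5b had 7.04 and 7.11 at day 3, against 6.29 and 6.53 at day 0, and rose by 0.67, with 1 of its 2 probe sets called and 0.40 from their mean. Stat4 also fell (-0.90), while Stat2 (-0.14, adjusted p = 0.389) and Stat6 (-0.20, adjusted p = 0.117) were not called in the limma fit. Stat6 was called lower without day 0 replicate 1 (-0.29, adjusted p = 0.0321). Among the kinases, Jak3 fell by 1.58. Jak1, the main Jak of gp130 receptors, had a difference of -0.22 with an adjusted p = 0.0439 in limma, and none of its 3 probe sets was called over all probe sets. Its adjusted p was 0.0654 after renewed quantile normalization, and it ranged from 0.138 to 0.181 without day 0 replicate 1 or either day 3 array.

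Feedback inhibitors and other targets of the same signalling went both ways, since 8 of 18 fell and 3 rose while 7 were not called (median -0.20). Socs3, the inhibitor induced by Stat3, had 6.13 and 6.03 at day 3, against 11.98 and 11.99 at day 0, and fell by 5.91 ± 0.08 (SE, limma, adjusted p = 3.05e-11), the largest difference of the list. Bcl3, a co-regulator of NF-kB factors (-4.61), and Junb, an AP-1 factor (-1.54), followed. Without probe sets matching several transcripts the difference of Socs3 was -4.26, still called but smaller in size than the -4.61 of Bcl3. Bcl3 has 1 probe set, which this setting kept, so its value could not change. Pim1 and Pim3 fell on the same arrays as Socs3, and Pim2 rose on them. Every gene called lower, 21.4% of all genes, fell on these arrays too. A link between Socs3 and the Pim genes was not tested. Among 11 measured factors reported to act on Pim genes in various cells, 5 fell, 1 rose and 5 were not called (median -0.40). Klf4 fell most (-3.80). Klf5, which was described as an activator of PIM1 in human cells, had a difference of -2.35, and Egr1 one of -1.64. The value of Klf5 depended on the probe set, at -1.28 from the mean of its probe sets and -1.51 without those matching several transcripts, both called and both smaller in size than that of Egr1.

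Genes for reported Pim substrates were split. In the cell cycle group 3 of 9 fell, 1 rose and 5 were not called (median -0.03). Cdkn1b, an inhibitor of cyclin-dependent kinases that Pim kinases inactivate, had 9.49 and 9.56 at day 3, against 8.93 and 8.91 at day 0, and rose by 0.61, with 1 of its 2 probe sets called and 0.40 from their mean. Cdc25c, a phosphatase of mitotic entry (-0.59), and Chek1, a checkpoint kinase (-0.42, or -0.27 from the mean of its probe sets), fell. In the survival group 8 of 9 were measured, of which 3 rose, 1 fell and 4 were not called (median 0.05). Map3k5, a kinase of stress-induced cell death (0.67), and Foxo4, a transcription factor held in check by phosphorylation (0.52), rose. Mdm2, the ubiquitin ligase of p53, fell by 0.75. Its difference was -0.46 from the mean of its probe sets, and it was 0.12 and not called without probe sets matching several transcripts (limma, adjusted p = 0.506). Bad, a death-promoting protein that Pim kinases phosphorylate, had 8.37 and 8.45 at day 3 and 8.52 and 8.47 at day 0, and was not called (-0.08, limma, adjusted p = 0.486).

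The third group of substrates, with factors of transcription, translation and receptors, had 5 of 16 higher, 5 lower and 6 not called (median 0.05). It held the largest rise of any of the 8 lists, that of Myb, a transcription factor of progenitor cells whose protein Pim1 phosphorylates. Myb had 10.36 and 10.32 at day 3, against 5.59 and 5.56 at day 0, a difference of 4.77 ± 0.09 (SE, limma, adjusted p = 1.07e-10) with all 3 probe sets called the same way. Irs1, an adaptor of the insulin receptor, had 8.82 and 8.90 at day 3 and 5.69 and 5.78 at day 0, and rose by 3.13. Myc, the partner of Pim kinases in lymphoma, had 9.17 and 9.13 at day 3, against 10.83 and 10.50 at day 0, and fell by 1.51.

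Kinases that share substrates with Pim, of the Akt, Sgk and mTor group, had 6 of 13 measured members lower, 2 higher and 5 not called (median -0.20). Sgk3, a kinase of endosomes, had 8.94 and 9.12 at day 3, against 7.68 and 7.53 at day 0, and rose by 1.42, with its 3 probe sets called alike. Its relatives Sgk1 (-0.77) and Sgk2 (-0.76) fell, where 20.9% of all genes were called higher and 21.4% lower. Of 7 measured genes for proteins that control the stability of Pim proteins, 2 fell, 1 rose and 4 were not called (median -0.12). The chaperone gene Hspa4 (-0.44) fell, and Ppp2r1a, the scaffold of the phosphatase PP2A (0.25), rose. Hsp90aa1, a chaperone of Pim1, had a difference of -0.15 that was called (limma, adjusted p = 0.0292) and lost its call when day 0 replicate 2 (adjusted p = 0.0903) or day 3 replicate 2 (adjusted p = 0.221) was left out, and with no intensity trend (adjusted p = 0.214). Its fall was larger and called from the mean of its probe sets (-0.29, limma, adjusted p = 0.00327) and without those matching several transcripts (-0.43, adjusted p = 0.000573).

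Over the 8 lists together 93 of 100 different genes were measured, of which 17 rose, 38 fell and 38 were not called. The share called was 59.1%, against 42.3% of all genes. Of the 71 list genes above the median level 64.8% were called, against 62.7% of all genes at such levels. The share of calls in either direction thus stood near the background for genes of this brightness. By direction the lists leaned to falls, at 38 against 17 rises, where 21.4% of all genes were called lower and 20.9% higher.

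**Figure D4:**
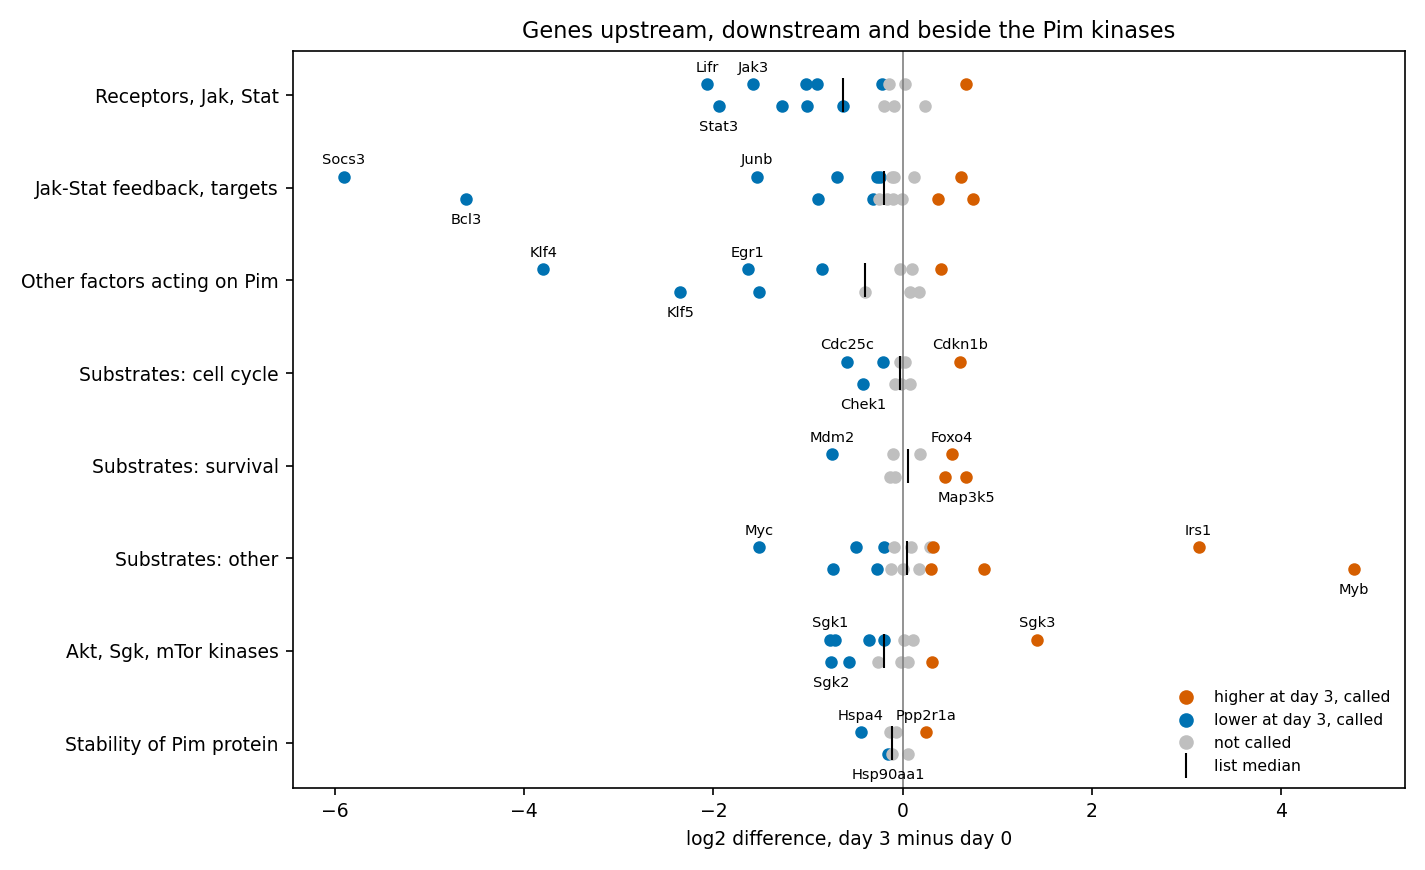
Log2 difference, day 3 minus day 0 (horizontal axis), of the measured genes of the 8 lists, 1 point per gene. Orange points were called higher, blue points lower and grey points were not called at an adjusted p under 0.05 (limma), the black tick is the list median, and the 3 genes with the largest difference in each list are named. Receptors, Jak kinases and Stat factors lie mostly to the left of 0, and Myb (4.77) and Irs1 (3.13) are the points farthest to the right.

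The genes whose profiles were most like those of the Pim genes were found by the Euclidean distance between log2 values centred on each gene's mean, over the 4 arrays. With 2 days in duplicate, this likeness rests almost wholly on the size of the day difference, and on 1 probe set per gene. Pim2 was closest to Myb (distance 0.0939), then to Maf, a leucine zipper transcription factor (0.235), and Ctsc, a lysosomal protease (0.268). Averaged over all probe sets of each gene, the day difference was 4.73 for Myb, against 1.66 for Maf and 2.51 for Ctsc, so the closeness of Maf and Ctsc to Pim2 held for the probe sets used here. The day 0 values of Maf (4.22 and 3.92) lay below the arrays' first quartile, where a level is not separated from background. Pim1 was closest to Kit, the receptor of stem cell factor, which had 8.44 and 8.41 at day 3, against 10.61 and 10.73 at day 0 (distance 0.0708). It was followed by Psma8, a proteasome subunit of germ cells (0.086), and Clgn, a chaperone of the endoplasmic reticulum (0.0867). The difference of Kit was -1.68 from the mean of its probe sets, beside -2.00 for Pim1. Pim3 was closest to B230307C23Rik (0.0133), Fn1, which encodes fibronectin (0.0337), and S1pr2, a receptor of sphingosine-1-phosphate (0.049). Averaged in the same way, the day differences of these 3 genes were -0.84, -1.75 and -1.06, against -0.97 for Pim3 and -1.36 on its probe set used here. The distances were not recomputed from such averages.

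Markers of cell state and of other cells were read on the same arrays. Of 14 genes of naive and epiblast states, 4 rose, namely Fgf5, Otx2, Dnmt3b and Pou3f1, where 42.3% of all genes were called in either direction. The 9 that fell were Klf4, Klf2, Nanog, Zfp42, Esrrb, Tbx3, Prdm14, Sox2 and Sox1. Sox1 had 1 of its 2 probe sets called, and its day 3 values (3.26 and 3.31) lay below the arrays' first quartile. Pou5f1, which encodes Oct4, was not called (0.00, limma, adjusted p = 0.98). Visceral endoderm genes were higher at day 3 in 11 of 12 cases, with a median difference of 2.85, and the log2 of their summed signal was 14.45 to 14.60 at day 3, against 11.21 to 11.34 at day 0. Their part in the differences of the Pim genes was not tested. Of 8 fibroblast genes 4 rose (Thy1, Pdgfra, Dcn and Col1a2), where 20.9% of all genes were called higher. Col1a1, Col3a1, Lum and Postn were not called. Of these, Col3a1, Lum and Postn lay below the arrays' first quartile of 4.30 to 4.33 on every array. The summed signal of the 8 was 10.30 to 10.53 at day 3 and 9.42 to 9.62 at day 0. Pdgfra was the brightest of them, with means of 9.72 at day 3 and 8.90 at day 0. The part of these genes was not tested either. Of 9 measured blood cell genes, relevant because Pim kinases are abundant in blood, 0 were called by limma, and their array values lay between 3.46 and 6.66, with a summed signal of 8.79 to 8.83 at day 3 and 8.74 to 8.84 at day 0. The lowest of them, Itgam and Ptprc, were below the arrays' first quartile of 4.30 to 4.33 on every array. In bulk samples such as these, fewer cells of a type and less RNA per cell cannot be told apart.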

How the data were processed

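The authors deposited log2 values for each probe set on each array. Per the submitters' processing notes, RMA and R 2.13.0 were used, and further settings and a genome build are not given in the sources used here. RMA makes the arrays' distributions alike, so a change in total RNA per cell cannot be seen, and no detection calls were used. The number of arrays limits the precision.

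Of 45101 probe sets, 64 were controls and 34958 had 1 gene symbol in the platform annotation, which gave 18193 genes, while 932 had several symbols and 9211 had none. Identifiers of 34754 probe sets were found in the RefSeq table, and 0 symbols were updated. The members, lists and tests were chosen with earlier results of these data known. The octamer was added to the motifs after the promoter sequences had been seen.

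Differences are day 3 minus day 0, from limma 3.58.1 in R 4.3.3 (lmFit with no covariate, eBayes with an intensity trend), once over the genes and once over the 45037 probe sets. The fits were two-sided, with Benjamini-Hochberg adjustment and a call at an adjusted p under 0.05. Each gene had 2 residual degrees of freedom, to which the prior added about 8.02. Permutation tests were run in SciPy 1.17.1. Named genes are the Pim genes, the 3 largest differences in each list, the measured Stat genes, Lifr, Il6st, Jak1, Socs3 and the 3 nearest profiles to each Pim gene. Bad, the cell-state markers named apart from Klf4, the fibroblast markers named and the blood markers Itgam and Ptprc were added after their values were seen. These added genes were not followed singly through the alternatives. The procedure was tested on simulated data.

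The alternatives were an unmoderated test, robust variances, no intensity trend, median centring, renewed quantile normalization, only genes above the median level, only probe sets without the suffix _s_at, _x_at or _a_at, an average over the probe sets of a gene, leaving out each array, a block for the replicate number, and an adjusted p under 0.01.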

Additional observations from a re-analysis of the deposited data

How the results depend on the processing

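The differences of Pim1, Pim2 and Pim3 kept their direction and their call in all alternatives computed for genes. They ranged from -2.28 to -2.00 for Pim1, from 4.64 to 4.76 for Pim2 and from -1.53 to -0.969 for Pim3, whose value was lowest in size from the mean of its probe sets. Pim2 has 1 probe set, so the 2 alternatives that change the choice of probe sets could not alter its value. Leaving out suffixed probe sets kept the same probe set for Pim1. With 1 array left out the ranges were -2.28 to -2.21, 4.64 to 4.76 and -1.37 to -1.34. In the unmoderated test on all arrays, which borrows no spread from other genes, the adjusted p was 0.0311 for Pim1, 0.0308 for Pim2 and 0.0289 for Pim3. That of Pim3 rests in part on its equal day 0 values, which understate the error. Its SE was 0.012 there, against 0.056 in the main fit. The second Pim1 probe set kept its call at -1.86 to -1.63, and the second Pim3 probe set at -1.59 to -1.47. The dim Pim3 probe set 1438956_x_at was not called in any alternative, ranged from -0.091 to 0.050 with 1 array left out, and turned upward without day 0 replicate 2 (0.034) and without day 3 replicate 1 (0.050). The shift of the ratio between paralogs kept its direction in each pair, at 6.70 to 6.97 for Pim2 to Pim1, 5.67 to 6.10 for Pim2 to Pim3 and -1.03 to -0.869 for Pim1 to Pim3. Called genes numbered 3803 higher and 3900 lower, against 1065 and 1084 with the unmoderated test. Called probe sets numbered 6409 higher and 7522 lower, and 4869 were called lower without day 3 replicate 1 (with 1 array left out, 4440 to 6066 higher and 4869 to 6995 lower). The difference of Mdm2 turned to 0.12 without probe sets matching several transcripts. Among the other named genes, the unmoderated test lost 16 calls. Deviations of same-numbered samples did not move together (r = -0.017 across genes). With a single duplicate difference per day, this cannot tell whether the numbers pair the samples. With the replicate block 3789 genes were higher and 3871 lower, and of the calls of named genes that of Jak1 alone was lost (-0.22, limma, adjusted p = 0.0562). With 2 arrays a day and no detection calls, a change of a probe set near the first quartile could not be told from background.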
